A study of Mus musculus with 2 samples.

Results

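Immediate early genes outside the AP-1 family were compared between mouse 3T3 fibroblasts kept in suspension and those plated on fibronectin. The set was given as 10 names: the zinc finger transcription factors Egr1 and Egr2, the nuclear receptor Nr4a1, Ier2 and Ier3, the antiproliferative genes Btg1 and Btg2, the mRNA-decay proteins Zfp36 and Zfp36l1, and Myc. Its members were all probe sets that the MG_U74Av2 annotation maps to exactly 1 of these genes, which gave 11 probe sets for 10 genes, out of 12422 probe sets and 8251 named genes on the array. All 10 genes were measured, and only Egr1 had more than 1 probe set. Total RNA came from 2 samples of MEF 3T3 cells, an immortalised line derived from mouse embryo fibroblasts. The suspension sample came from cells kept unattached in serum-free DMEM, and the fibronectin sample from cells plated in serum-free DMEM for 30 min on 10 µg/ml fibronectin, a matrix glycoprotein that integrins bind. Neither group carries a genetic change or a drug according to the labels, and for how long the cells were held unattached is not stated in the labels. According to the labels, the unattached cells serve as the baseline for finding fibronectin-induced genes, and the plated cells were made to look at changes around MAPK signalling. The series text speaks of 2 replicates, but the labels give each group 1 sample and 1 array, so no difference below has a test, and "higher" and "lower" refer to these arrays alone. The arrays differed in chip lot, operator, fluidics module and scan day, so none of these can be told apart from the group.

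Immediate early genes are transcribed within minutes of a growth factor, adhesion or stress signal, without new protein synthesis, because the factors that switch them on, such as SRF with its TCF partners and CREB, are already in the cell and are activated by phosphorylation. ERK, p38 and other kinases carry that signal, and in fibroblasts both serum and contact with matrix are known triggers. The mRNAs are usually short-lived, and several of these genes shut the response down again. Proteins of the ZFP36 family bind AU-rich elements of mRNAs and recruit the CCR4-NOT deadenylase, BTG proteins bind the same deadenylase, and NAB proteins are corepressors of EGR factors.

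RefSeq promoter windows, 250 bases before to 50 after a start site on GRCm38.p6, were found for 7 of the 10 genes, with 5 windows for Egr2. Egr1, Ier2 and Myc had no match. The 250 bases before the start are shown for Zfp36 and Zfp36l1, the genes with the lowest ratios, and 30-base sites are shown for Egr2 and Btg2, whose signals lay close together in both arrays. Capitals mark a match, on either strand, to the CArG box that SRF binds (CC, 6 bases that are A or T, then GG), the CREB site TGACGTCA or the GC box GGGCGG. The lines give, in order, Zfp36 at chr7:28379229-28379478 on the minus strand, Zfp36l1 at chr12:80113014-80113263 on the minus strand, Egr2 at chr10:67537484-67537513 and at chr10:67537787-67537816 on the plus strand, and Btg2 at chr1:134079303-134079332 on the minus strand.
Zfp36: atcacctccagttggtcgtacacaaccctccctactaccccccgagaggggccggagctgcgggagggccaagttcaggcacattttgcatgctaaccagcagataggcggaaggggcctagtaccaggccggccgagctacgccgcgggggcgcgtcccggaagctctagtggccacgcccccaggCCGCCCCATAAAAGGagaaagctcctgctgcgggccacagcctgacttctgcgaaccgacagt
Zfp36l1: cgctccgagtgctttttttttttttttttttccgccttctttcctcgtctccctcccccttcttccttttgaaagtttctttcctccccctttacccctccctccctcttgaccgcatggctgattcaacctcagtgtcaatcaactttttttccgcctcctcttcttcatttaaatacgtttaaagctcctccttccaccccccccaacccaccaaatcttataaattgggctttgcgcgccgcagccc
Egr2: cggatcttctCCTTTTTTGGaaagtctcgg
Egr2: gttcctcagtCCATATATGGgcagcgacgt
Btg2: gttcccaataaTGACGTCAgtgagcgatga
The capitals of Zfp36 are a CArG box, CCATAAAAGG, that begins 58 bases before the start and shares 1 base with a GC box read on the other strand. A CArG box was present in a window of 2 of the 7 genes, Egr2 and Zfp36, against 1.81% of all 27025 genes with a window. Egr2 has more windows than the other 6 genes, and so more chances of a match. The site TGACGTCA was present in 1 of the 7, Btg2, against 2.03% of all genes. The GC box was present in 6 of the 7 genes, Zfp36l1 being the exception, against 38.2% of all genes. The E-box CACGTG that MYC and its partners bind was found for Egr2 alone (8.09% of all genes), and the NR4A site AAAGGTCA for 0 of the 7 (1.70%). These are matches of letters within the windows and were not tested as binding sites.

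Signals are MAS5 intensities on a linear scale, scaled to equal 2% trimmed means. A common floor was set at a signal of 490, the mean of both arrays' 40th percentiles, and a gene counted as measured where at least 1 array reached it, as 6385 genes did. The ratio of a gene is its floored log2 signal on fibronectin minus that in suspension. Of the 34 negative control probe sets, 95% lay below 1403 in suspension and below 1873 on fibronectin, and the highest reached 1452 and 2527. A gene at or above these 95th percentiles in both arrays is called bright below, and 2263 genes were. In place of a replicate error, the ratios of the 181 bright genes with 2 bright probe sets were compared. The probe sets of 1 gene differed with a median of 0.36 on the log2 scale, and 54 of the 181 pairs had opposite signs. The SD of 1 ratio estimated from these pairs was 0.40, which holds differences between probe sets and none between cultures. Of 12 fibroblast markers 9 were bright, with summed signals over the list of 178841 in suspension and 256852 on fibronectin, while Thy1 lay below the floor in both arrays and Vim had 1421 and 686. Of 34 markers of blood cells, epithelium, endothelium, muscle, adipocytes and neural cells only Cd14 and Tubb3 were bright, none was listed at 0, and the summed signals were 29063 and 22434. The part of these markers in the results was not tested. In bulk RNA, fewer cells with an mRNA and less of it per cell cannot be told apart.

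Most of the 10 early genes had a high signal in suspension and a like signal on fibronectin. In suspension 8 of the 10 lay among the top 10% of all probe sets, on fibronectin 6 did, and these 6 did in both arrays, against 12.8% of all measured genes and 36.2% of bright genes. Between the arrays, 8 of the 10 differed by less than 1.5-fold, with log2 ratios from -0.45 to 0.51. Most of all measured genes and most bright genes did so too, so this is no trait of the 10. The shares past 1.5-fold follow. None was at least 1.5-fold higher on fibronectin, where 15.9% of all measured genes and 16.9% of bright genes were. Zfp36 and Zfp36l1 were at least 1.5-fold lower, 2 of 10, where 22.6% of all measured genes and 7.29% of bright genes were, so the count over the 10 genes lies near the background of all genes. A gene can miss the bright set by being lower on fibronectin, which keeps the shares of lower bright genes small. At 2-fold, 0 of 10 were higher and 1 of 10, Zfp36, was lower. The background at 2-fold was 5.79% higher and 9.27% lower over all measured genes, and 3.8% higher and 1.02% lower over bright genes. The median log2 ratio of the 10 genes was -0.24, against -0.09 over all measured genes and 0.09 over bright genes. The scaling sets how many of all genes are called in each direction. At 1.5-fold there were 1014 higher and 1440 lower genes, against 1490 and 983 under median scaling, 1167 and 1200 after quantile normalization, 1165 and 1180 after loess, and 367 and 2919 with scaling to 9 hybridisation spikes, which are control transcripts added to the sample.

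**Figure D1:**
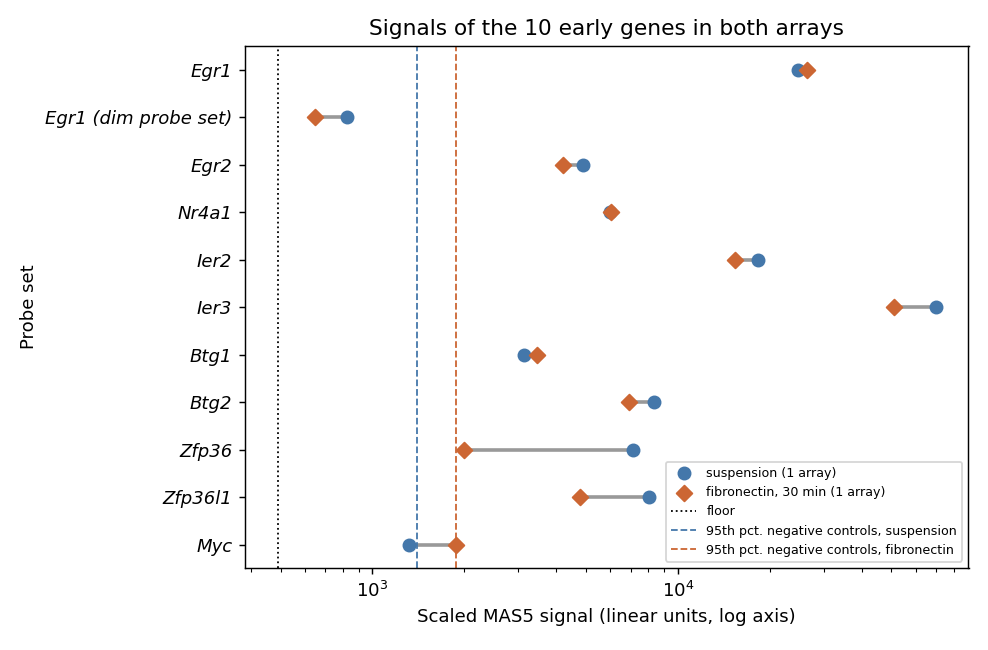
Scaled MAS5 signal (log axis) of the 11 probe sets of the 10 early genes, with 1 circle for the suspension array and 1 diamond for the fibronectin array. The dotted line is the floor of 490 and the dashed lines are the 95th percentiles of the negative controls, 1403 and 1873. Zfp36 has the widest gap, 7134 to 1996, and Myc and the dim Egr1 probe set lie at or below the control lines.

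The largest difference among the 10 genes was in the mRNA-decay gene Zfp36. It encodes tristetraprolin, an AU-rich element binding protein that targets cytokine and early gene mRNAs for deadenylation, and gave 7134 in suspension and 1996 on fibronectin. It went from the 95.4th to the 77.3rd percentile of all probe sets. The log2 ratio was -1.84, a signal 3.57-fold lower on fibronectin. Of all 6385 measured genes, 55 had a lower ratio, of which 54 were not bright. The remaining one was Med22, named after its values were seen, at -2.10 in a probe set with 23472 and 5481, and -0.46 in its other probe set. Little is to be read from its rank among bright genes, since a gene that is lower on fibronectin can lose that status by being lower, and Zfp36 was near the limit. The fibronectin signal of Zfp36 was 1.07 times the 95th percentile of negative controls there and below the highest of them. With the floor at that highest control, 2527, Zfp36 was at least 2.82-fold lower. Its only probe set carries the suffix that Affymetrix gave to sets whose probes can match more than 1 transcript, so signal of a related sequence cannot be told apart from its own.

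Zfp36l1, a paralogue with the same kind of zinc fingers, had signals of 8071 in suspension and 4796 on fibronectin. This was 1.68-fold lower (log2 ratio -0.75). A lower ratio was found for 1001 of the 6385 measured genes and for 80 of the 2263 bright genes. The sequences upstream of Zfp36 and Zfp36l1 differ in the motifs searched, with the CArG box in Zfp36 and 0 matches in Zfp36l1. The third paralogue on the array, Zfp36l2, is named here for its kinship, after its values were seen. Its brightest probe set had 26069 and 26464, a log2 ratio of 0.02. Its other probe sets were higher on fibronectin, 3.29-fold in 1 (2007 and 6593) and at least 5.04-fold in the other (128 and 2467), so that its direction was not settled, and no probe set of Zfp36l2 was lower.

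**Figure D2:**
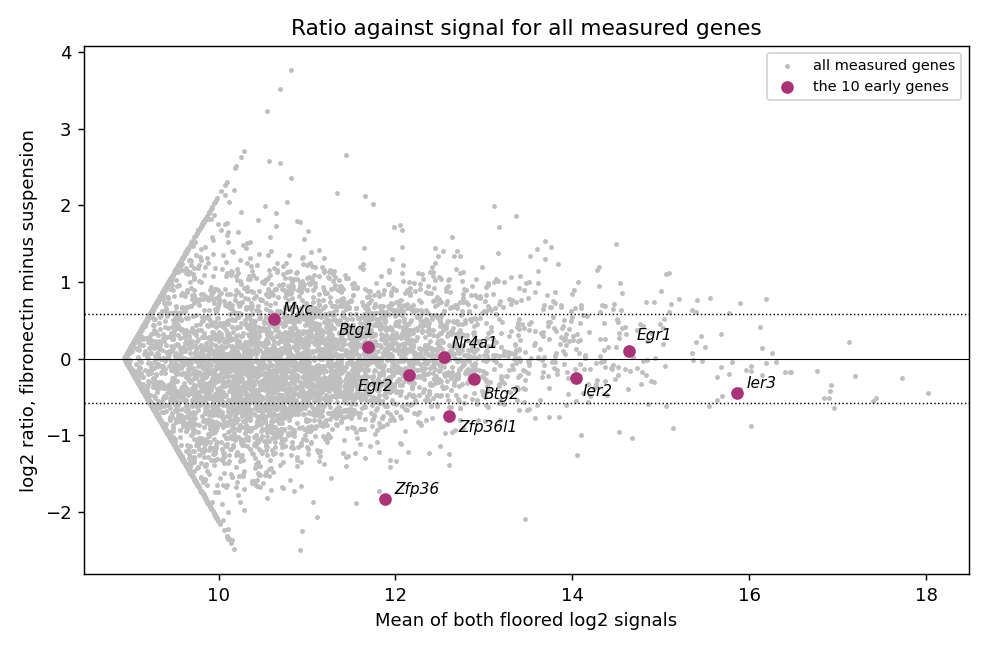
Log2 ratio, fibronectin minus suspension, against the mean of both floored log2 signals for 6385 measured genes (grey points), with the 10 early genes in purple. Dotted lines mark 1.5-fold and the straight left edges are genes with 1 array at the floor. Zfp36 at -1.84 lies at the lower edge of genes of its signal and Zfp36l1 at -0.75 lies just outside the dotted line, whereas the other 8 lie between the lines.

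The BTG genes, which restrain proliferation and stimulate poly(A) shortening through CCR4-NOT, did not share a direction. Btg1 had 3127 in suspension and 3463 on fibronectin (log2 ratio 0.15). Btg2, which p53 and growth factors also induce, had 8340 and 6924 (log2 ratio -0.27). Both ratios lay within the SD of 0.40 between probe sets.

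For Egr1, Egr2 and Nr4a1, all transcription factors, the signals of both arrays lay close together. Egr1, the zinc finger factor that links ERK signalling to growth factor and matrix genes, had 24681 in suspension and 26466 on fibronectin in its bright probe set, which was the 98.9th percentile of both arrays. Its log2 ratio was 0.10. The dim probe set of Egr1 had 823 and 647, below the 95th percentile of negative controls in both arrays, and its log2 ratio was -0.35. Egr2, the relative known for its part in myelination and hindbrain patterning, had 4891 and 4214 (log2 ratio -0.21). Nr4a1, an orphan nuclear receptor also called Nur77, had 5976 and 6051 (log2 ratio 0.02), the smallest difference of the 10 genes. The percentile of Egr2 was 92.3 in suspension and 89.7 on fibronectin, and that of Nr4a1 was 94.0 and 93.4.

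Both IER genes lay among the top 10% of probe sets in both arrays, although signals of different probe sets depend on their probes and give no order of mRNA amounts. Ier3, also called IEX-1, a regulator of apoptosis and of ERK, had 69804 in suspension and 51074 on fibronectin. It was at the 99.6th and 99.5th percentiles, with a log2 ratio of -0.45, or 1.37-fold lower. Ier2, a nuclear protein induced by serum, had 18363 and 15381 (log2 ratio -0.26). Of the 2263 bright genes, 12.9% had a lower ratio than Ier3 and 24.1% a lower ratio than Ier2. Of all measured genes, 29.3% and 40.1% did, in the same order.

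Myc, the bHLH transcription factor that drives ribosome production and entry into the cycle, was the only one of the 10 that was not bright in both arrays. Its signal was 1319 in suspension and 1882 on fibronectin, next to 95th percentiles of negative controls of 1403 and 1873. The log2 ratio was 0.51, or 1.43-fold higher, the highest of the 10, and its percentile went from 64.6 to 76.0. As both signals lay at the level of the negative controls, the size of this ratio is uncertain. With the floor at the mean of both control percentiles it was 0.20, and with the floor at the highest control Myc was not measured.

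Across 11 other ways of processing the table, Zfp36 was lower on fibronectin each time, with log2 ratios from -2.31 to -1.50, and at least 1.5-fold lower each time. A floor below both signals, or a mean over probe sets where a gene has 1, leaves a ratio unchanged. The counts in this paragraph therefore include alternatives that could not move the ratio. Zfp36l1 was lower each time, from -1.22 to -0.54, and at least 1.5-fold lower in 10 of 11, with median scaling the exception. Egr2, Ier2, Ier3 and Btg2 stayed below 0 in all 11, but only with scaling to the spikes were they 1.5-fold lower. Egr1 and Nr4a1 had ratios of both signs, with 3 of 11 below 0 for each, and so had Btg1, with 1 of 11 below 0. Myc stayed above 0 in the 10 that measured it and passed 1.5-fold in 3. The median of all measured genes was itself moved by the scaling, from -0.09 to 0.11 under median scaling and -0.51 with the spikes. Relative to that median, Zfp36 lay between -1.87 and -1.53 and Zfp36l1 between -0.88 and -0.60.

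**Figure D3:**
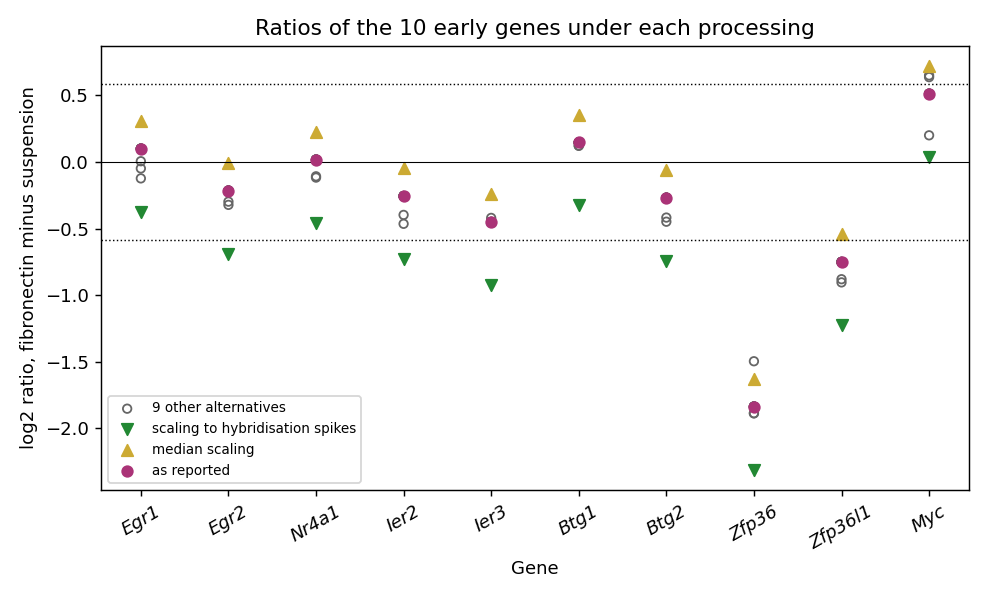
Log2 ratio, fibronectin minus suspension, of the 10 early genes as reported (purple) and under 11 alternatives, with triangles for median scaling and for scaling to the hybridisation spikes and open circles for the other 9. Dotted lines mark 1.5-fold. Zfp36 stays between -2.31 and -1.50 throughout, and the points of Egr1, Nr4a1 and Btg1 lie on both sides of 0.

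The median of other early genes lay above that of the 10, with overlapping ratios and no test of the difference. Of 17 measured members of a list of 23 other early genes, ratios above 0 were found for 14. By 1.5-fold or more, 5 of 17 were higher and 0 lower, beside 15.9% and 22.6% of all measured genes. Of the 17, 12 were bright, with a median of 0.38. Over all bright genes, 16.9% were higher, 7.29% were lower and the median was 0.09. The median of the 17 was 0.37 against -0.09 over all measured genes. The median was -0.11 with scaling to the spikes, which is 0.41 above that of all genes there. The Krüppel-like factor genes Klf5 and Klf4 had the highest ratios, 2.29-fold from signals of 608 and 1390 that negative controls also reach, and 2.09-fold from 1670 and 3499. The others past 1.5-fold, which like the further genes completing a count below were named after their values were seen, were Klf9 (1.82-fold), the kinase gene Sgk1 (1.53-fold) and Gadd45b (1.62-fold, with a log2 ratio of -0.07 in its other probe set). Nr4a2, a relative of Nr4a1 that is named for its kinship, had log2 ratios of 0.23 and 0.18 in its probe sets. Of 9 measured regulators upstream of early genes and EGR corepressors, 7 had a ratio above 0. Srf itself had no probe set that the annotation maps to it alone, so it is not among the 9. By 1.5-fold or more, 4 of 9 were higher and 1 was lower, beside the same 15.9% and 22.6%. The median was 0.29, or -0.11 with the spikes, where that of all genes was -0.51. Nab1, which represses EGR factors, was 2.23-fold higher (1648 and 3672), while Nab2, named beside it, had 4832 and 5083. The ERK target Elk1 was 1.71-fold higher, from 788 to 1351, and Creb1 at least 2.61-fold lower, from 1280 to below the floor, all signals that negative controls also reach. That fall was seen in 1 probe set of Creb1. Another had 491 and 469, near the floor, and the last lay below the floor in both arrays. The other higher genes of this list were Crem, at least 1.68-fold, and Mef2d, 1.51-fold.

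The decay machinery with which Zfp36 and the BTG proteins act had no common direction. Of 21 measured genes of the BTG/TOB family, CCR4-NOT, decapping and the exosome, 3 were higher and 3 lower by 1.5-fold or more. The shares over all measured genes were 15.9% and 22.6%. The list median was -0.04, next to the -0.09 of all genes. Under median scaling it was 0.16, where that of all genes was 0.11. Of the 21, 11 were bright, with a median of -0.04 against 0.09 over all bright genes. Tob1, an antiproliferative relative of Btg1 and Btg2, was 1.87-fold higher (2363 and 4422), and Lsm1 of the decapping complex 1.77-fold higher (1126 and 1999). The decapping gene Dcp1a was at least 2.84-fold lower, from 1389 to below the floor, and the exosome gene Exosc7 1.74-fold lower (1928 and 1106). The deadenylase genes Cnot7 and Parn completed the counts, 1.53-fold higher and 1.73-fold lower, with signals no higher than 1254. Of these 6 genes only Tob1 was bright in both arrays, and the folds of the others are uncertain in size. A list of AU-rich element binding proteins also holds the kinase gene Mapkapk2, the poly(C) binders Pcbp1 and Pcbp2 and the GU-rich element binder Celf1. Of its 11 measured genes, 0 were higher and 1 was lower by 1.5-fold or more, beside the same 15.9% and 22.6%. The median was 0.02, or -0.45 with the spikes, where that of all genes was -0.51. Of the 11, 9 were bright, with a median of 0.07 against 0.09 over all bright genes. At 1.5-fold, 16.9% of bright genes were higher and 7.29% lower. The lower one was Celf1, at least 2.87-fold from 1406, a signal that negative controls also reach, to below the floor. Its other probe set lay below the floor in both arrays.

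A list of 15 measured mRNAs known to hold AU-rich elements shares Ier3 and Myc with the 10 genes. Of these 15, 4 were higher and 4 lower by 1.5-fold or more, beside 15.9% and 22.6% of all measured genes. The median was -0.20, and 0.11 with a floor set by the 95th percentiles of the negative controls, so its sign was not settled. The highest were the angiogenic factor Vegfa, at least 5.62-fold higher, and Plaur, which encodes the receptor of urokinase, at least 3.77-fold higher, each starting below the floor. The lowest were the cytokine gene Il3, at least 2.28-fold from 1115 to below the floor, and the chemokine gene Cxcl2, 2.06-fold from 1046 to 507. The prostaglandin synthase gene Ptgs2 was 3.55-fold higher (513 and 1818) and Tnf at least 1.64-fold higher, while Il6 was at least 1.99-fold and Cdkn1a 1.60-fold lower. None of these 8 genes was bright in both arrays. Of these 15, 6 were bright in both arrays, with a median of -0.24 against 0.09 over all bright genes. Over all measured genes the median was -0.09.

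Of 9 measured MYC partners and antagonists, 2 were higher and 3 lower by 1.5-fold or more, beside 15.9% and 22.6% of all measured genes. The median was -0.14, or 0.07 under median scaling, where that of all genes was 0.11. Mnt, a MAX partner that opposes MYC, was 2.55-fold higher (536 and 1368) and the ATPase gene Ruvbl2 1.88-fold higher (1102 and 2072). Mxd3, another antagonist, was at least 2.82-fold lower from 1381 to below the floor. Mlx, a MAX-like protein that does not pair with MYC itself, was 1.83-fold lower (2091 and 1144). Mycn, a paralogue of Myc that the list also holds, was at least 1.80-fold lower, from 879 to below the floor. None of these 5 was bright in both arrays, which leaves their folds uncertain in size. Of 22 measured MYC target genes, 4 were higher and 0 lower by 1.5-fold or more, beside 15.9% and 22.6% of all measured genes. The share of higher ones lies near that background. The median was 0.06, or -0.41 with the spikes, where that of all genes was -0.51. Of the 22, 13 were bright, with a median of 0.07 against 0.09 over all bright genes. Of bright genes, 7.29% were at least 1.5-fold lower. The nucleolar gene Gnl3 was 3.37-fold higher (555 and 1874) and Cad, an enzyme of pyrimidine synthesis, 1.81-fold higher (774 and 1403). In each array these signals lay below that of the highest negative control. The nucleolar genes Nolc1 and Fbl were higher by at least 1.74-fold, from below the floor to 854, and by 1.56-fold. Of these 4 genes only Fbl was bright in both arrays, and the folds of the others are uncertain in size.

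**Figure D4:**
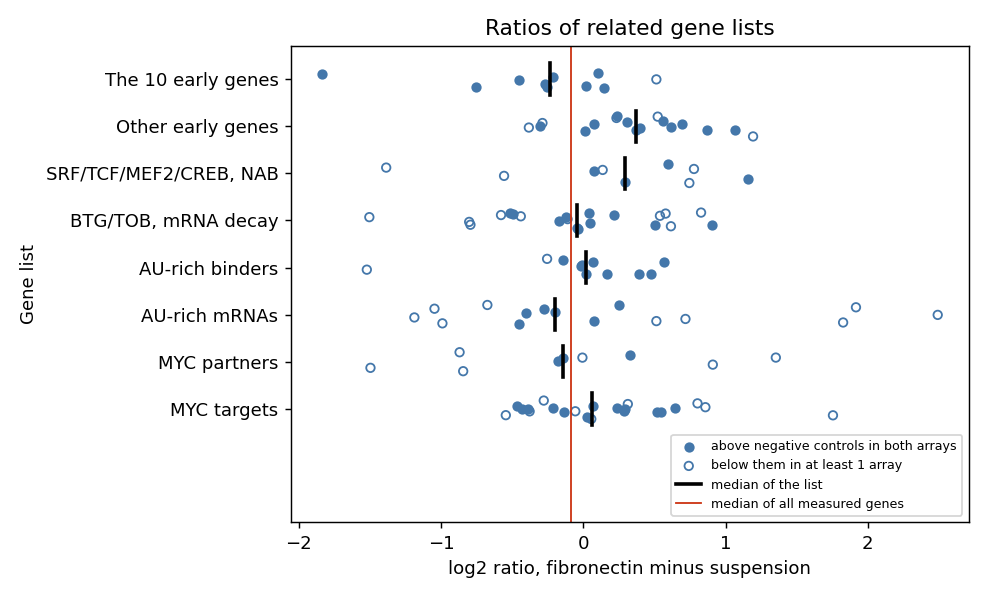
Log2 ratio, fibronectin minus suspension, of the measured genes of 8 lists, 1 point a gene, filled where the gene was above the 95th percentile of negative controls in both arrays. Black bars are list medians, from -0.24 for the 10 early genes to 0.37 for other early genes, and the red line is the median of all measured genes, -0.09.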

How the data were processed

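Total RNA of 2 samples, grouped by their titles, was labelled with biotin and hybridised to 1 MG_U74Av2 array each. The deposited values are intensities, 1 signal for each of 12488 probe sets, which the authors made using MAS5, according to the submitters' processing notes. The MAS5 version and scaling target are not stated in the labels, and detection calls were not used here. The 66 control probe sets were set aside. The 2% trimmed means were 1489 and 1486 before scaling and the medians 785 and 678. The platform annotation gave a single gene symbol for 10855 probe sets and several for 396, and 1237 that it does not list are unnamed here. A gene was read from its probe set of highest mean floored log2 signal. Below the floor a ratio is a bound. No test between groups was run, as each had 1 array. The number of arrays limits precision.

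Members and lists were chosen with earlier results of these data known. Genes named from the lists are the 2 highest and 2 lowest that differed by at least 1.5-fold and had no other probe set of opposite sign beyond 0.3. The scaling and ratio functions were checked on simulated signals without noise, for high-signal genes with a single probe set. That check did not cover the floor, the bounds or the choice of probe set. Python 3.11.15, pandas 2.3.3 and statsmodels 0.14.6 were used.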

Additional observations from a re-analysis of the deposited data

How the results depend on the processing

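Of 11 alternatives, 10 were planned, and a floor at the highest negative control was added after seeing the data. Members at least 1.5-fold higher numbered 1 under median scaling, quantile normalization and loess, and members at least 1.5-fold lower 1 under median scaling. Loess put Zfp36 on fibronectin at percentile 76.0. With scaling to the spikes, 6 members were at least 1.5-fold and 2 at least 2-fold lower, and log2 ratios were -0.37 for Egr1, -0.69 for Egr2, -0.46 for Nr4a1, -0.73 for Ier2, -0.92 for Ier3, -0.33 for Btg1, -0.74 for Btg2, -2.31 for Zfp36, -1.22 for Zfp36l1 and 0.040 for Myc. Medians were then -0.51 for all genes, -0.71 for members, -0.11 for other early genes, -0.51 for decay genes, -0.45 for AU-rich binding proteins, -0.67 for AU-rich mRNAs, -0.55 for MYC partners and -0.41 for MYC targets. Counts of all genes at 1.5-fold, higher and lower, were 367 and 2919 with the spikes, 1557 and 2100 with the floor at the 20th percentile, 610 and 683 at the 60th, 433 and 311 at the 95th percentile of negative controls, 284 and 131 at the highest control, and 1690 and 2535 with no floor. At 2-fold they were 134 and 1409, 817 and 1179, 155 and 158, 96 and 47, 64 and 18, and 931 and 1542 in the same order, with 596 higher under median scaling. Floors change how many genes are tested. Signals near the negative controls, as for Myc, the dim Egr1 probe set and Zfp36 on fibronectin, limit what a ratio can show. No paired analysis was possible because each group has 1 sample.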
